A study of Mus musculus with 12 samples.

Results

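The 32 genes described here make cholesterol and fatty acids or control that synthesis: 7 genes of the mevalonate steps, 11 genes of the steps that turn farnesyl units and squalene into cholesterol, 5 genes of the SREBP control system, 6 genes of fatty acid synthesis and remodelling, and 3 genes of sterol transport and efflux. They were taken by gene name from a fixed list, which was drawn up with earlier results of these data known. Each name matched 1 of the 54532 entries of the count table. Their transcripts were counted by sequencing total RNA in 12 libraries, 3 from each of 4 subsets of CD4 T cells. All mice were wild-type C57BL/6 carrying a Foxp3-GFP reporter, with a polyclonal T cell repertoire and no treatment, and the cells were sorted fresh from a mix of spleen and lymph node tissue. Anergic cells were CD44high, FOXP3-negative, CD73high, FR4high and NRP1-positive. Treg cells were FOXP3-positive and CD25-positive. Teff cells were CD44high and FOXP3-negative with low CD73 and FR4. Naive cells were CD44low. Each subset is thus a sorted phenotype, and in bulk RNA a smaller share of cells that transcribe a gene cannot be told apart from less RNA of that gene per cell. The age of the mice is not stated, nor is it stated that the 3 libraries of a subset stem from different animals. A p-value here therefore reflects only the spread among these libraries, part of which may be technical.

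Cholesterol is built from acetyl-CoA through mevalonate, isoprenoid pyrophosphates and squalene, and most genes of this path are activated by the transcription factor SREBP2, the product of Srebf2. SREBP precursors sit in the endoplasmic reticulum membrane, where SCAP escorts them to the Golgi apparatus for cleavage when sterol is scarce and the INSIG proteins hold them back when it is plentiful. SREBP1, the product of Srebf1, drives genes of fatty acid synthesis, while excess sterol in the form of oxysterols activates the liver X receptors, which raise the efflux transporters ABCA1 and ABCG1. T cells raise this programme when they are activated and begin to divide.

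The promoters of 5 members are shown. The transcript of each passed the test as lower in Anergic cells in the comparisons given further on, and SREBP proteins act together with the factor NF-Y at promoters of this kind. Insig1 and Abca1 passed as lower in the same comparisons and have windows, but theirs are not printed. Each window runs 5′ to 3′ along the gene's own strand from 250 bases before to 50 bases after the RefSeq transcript start (build GRCm38.p6). Capitals mark the box CCAAT bound by NF-Y, on either strand (CCAAT or ATTGG), and the SREBP element searched as TCACNCCAC, on either strand.
Hmgcs1 (chr13:119690101-119690400, plus strand): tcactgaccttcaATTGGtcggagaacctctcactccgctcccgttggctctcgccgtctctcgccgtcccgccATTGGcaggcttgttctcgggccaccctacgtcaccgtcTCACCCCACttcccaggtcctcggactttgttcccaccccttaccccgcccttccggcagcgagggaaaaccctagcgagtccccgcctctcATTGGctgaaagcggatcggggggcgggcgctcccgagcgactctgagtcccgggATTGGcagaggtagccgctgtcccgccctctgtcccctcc
Mvd (chr8:122443373-122443672, minus strand): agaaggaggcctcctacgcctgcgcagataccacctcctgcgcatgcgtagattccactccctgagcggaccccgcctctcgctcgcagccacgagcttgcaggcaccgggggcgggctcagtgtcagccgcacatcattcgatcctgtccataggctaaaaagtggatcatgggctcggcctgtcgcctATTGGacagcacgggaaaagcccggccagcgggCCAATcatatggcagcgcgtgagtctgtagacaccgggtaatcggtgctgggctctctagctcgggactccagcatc
Idi1 (chr13:8885356-8885655, plus strand): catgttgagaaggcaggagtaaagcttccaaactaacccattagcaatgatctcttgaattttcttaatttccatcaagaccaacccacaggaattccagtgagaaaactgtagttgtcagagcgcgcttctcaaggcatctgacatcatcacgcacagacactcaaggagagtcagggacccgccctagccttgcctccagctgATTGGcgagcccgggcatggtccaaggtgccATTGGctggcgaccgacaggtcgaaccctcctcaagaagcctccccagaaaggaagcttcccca
Cyp51 (chr5:4104648-4104947, minus strand): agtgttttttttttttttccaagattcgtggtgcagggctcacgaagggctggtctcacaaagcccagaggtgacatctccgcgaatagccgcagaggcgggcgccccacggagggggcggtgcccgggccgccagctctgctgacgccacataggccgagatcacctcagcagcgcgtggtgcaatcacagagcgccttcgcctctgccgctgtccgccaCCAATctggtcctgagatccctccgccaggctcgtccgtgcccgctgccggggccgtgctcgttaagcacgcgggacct
Srebf2 (chr15:82147019-82147318, plus strand): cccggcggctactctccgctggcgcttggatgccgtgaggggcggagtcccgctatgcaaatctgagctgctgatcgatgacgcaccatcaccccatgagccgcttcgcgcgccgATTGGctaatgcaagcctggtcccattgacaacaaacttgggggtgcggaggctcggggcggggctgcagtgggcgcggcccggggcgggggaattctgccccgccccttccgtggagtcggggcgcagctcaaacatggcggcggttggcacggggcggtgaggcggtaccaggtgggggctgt
The Hmgcs1 window holds 4 CCAAT boxes and 1 match to the SREBP element, which lies 137 bases before the transcript start. The Mvd and Idi1 windows hold 2 CCAAT boxes each, and the Cyp51 and Srebf2 windows 1 each. Among the windows not printed, that of Insig1 holds 1 CCAAT box and that of Abca1 holds 0. Those of Acat2, Scap and Acaca also hold 0. Of the 32 members, 25 have a RefSeq window, and the others are Fdps, Fdft1, Sqle, Scd1, Scd2, Stard4 and Abcg1. A CCAAT box was present in 21 of these 25 members (84%), in 37.4% of all 32851 windows and in 43.2% of the 8879 tested genes with a window. The SREBP element was present in 1 of 25 members (4%), which is Hmgcs1, against 1.24% of all windows and 1.43% of tested genes. Only the string TCACNCCAC was searched, so an SREBP site that departs from it would be neither counted nor marked. The other windows may therefore still hold such sites. The box GGGCGG bound by Sp1 was present in 22 of 25 members (88%), 35.7% of all windows and 69% of tested genes, and the E-box CACGTG in 6 of 25 members (24%), 7.15% of windows and 12.1% of tested genes. The direct repeat bound by the liver X receptors, searched as its consensus, was in 0 of the 25 members, which says only that the consensus is not in those windows. Both strands were searched, a gene with several windows counted once if any of them matched, and CCAAT boxes and the SREBP element share no base in the windows printed. The share among tested genes and the choice of the windows printed were added after expression values had been seen.

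Library totals ran between 6909035 and 9527897 counts, and the 32 members held 0.102% to 0.137% of a library's counts. Levels below are counts scaled to a common library size with TMM factors (CPM), which correct for the composition of each library. 6 entries of ribosomal, mitochondrial or nuclear RNA held 29.4% to 40.4% of the counts, the largest share in Anergic 3. Libraries of the same subset correlated at 0.982 to 0.987 across genes and libraries of different subsets at 0.889 to 0.952, on the log scale. Cd4 was present in every subset, at 1222 ± 69.3 CPM in Anergic cells and 467 ± 21.7 in Treg cells. It averaged 653 ± 30.9 CPM in Teff cells and 676 ± 46.3 in Naive cells. The summed level of 13 T cell identity genes, Cd4 among them, was 5810 to 6133 CPM in Anergic cells. That sum was 4116 to 4390 CPM in Treg cells, 4307 to 4779 in Teff cells and 4641 to 5209 in Naive cells. Foxp3 stood at 18.2 ± 2.82 CPM in Anergic cells, 543 ± 16.3 in Treg cells, 0.734 ± 0.331 in Teff cells and 1.36 ± 0.222 in Naive cells (SD, n = 3 each). The Anergic libraries thus held some Foxp3 transcript, above the level in Teff and Naive cells. Of the 32 members, 31 passed the filter on low counts, and Scd1 did not, with 42 counts over all 12 libraries. Counts per library of the tested members ranged between 9 for Idi1 in Anergic 1 and 2315 for Srebf2 in Treg 1.

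In edgeR's quasi-likelihood test across the 4 subsets, with Benjamini-Hochberg adjustment over all 13393 genes tested, 22 of the 31 tested members (71.0%) differed at an adjusted p below 0.05, against 56.1% of all genes. In what follows a value in parentheses such as -0.68 ± 0.13 is a log2 fold change with its standard error. It sets the first-named subset over the second-named. The adjusted p beside it comes from the quasi-likelihood test of those 2 subsets in the same fit, adjusted in the same way. The lowest of the 4 subset means was that of Anergic cells for 21 of the 31 members (67.7%), against 27.6% of all genes tested. By role this was so for 6 of 7 mevalonate genes, 8 of 11 genes of the later sterol steps, 4 of 5 genes of SREBP control, 2 of 5 genes of fatty acid synthesis and 1 of 3 genes of transport.

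Compared with Teff cells, Anergic cells held less transcript of 9 of the 18 sterol enzymes and more of Scd2, a desaturase that makes monounsaturated fatty acids. Of the 31 members, 12 passed the test as lower, against a background of 12.7% of all genes, and 2 passed as higher, against 13.9% (26.6% of all genes were called in all). The members' median log2 fold change was -0.26, and that of all genes was close to 0. The members called lower were Mvd, Sqle, Idi1, Lss, Hmgcs1, Abca1, Mvk, Cyp51, Sc5d, Srebf2, Fdft1 and Insig1. Those called higher were Scd2 and Abcg1. All 3 Anergic libraries lay below all 3 Teff libraries for 17 members (18.2% of all genes) and above them for 2 (19.6%).

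Compared with Treg cells, Anergic cells held less transcript of 7 of the 18 sterol enzymes, by up to 2.8-fold. Here 11 of 31 members passed as lower (15.3% of all genes did) and 2 as higher (15.6%), while 31.0% of all genes were called. The members' median log2 fold change was -0.29. Idi1, Mvd, Sqle, Hmgcs1, Hsd17b7, Srebf2, Cyp51, Insig1, Abca1, Fdft1 and Abcg1 were called lower, and Scd2 and Acly higher. All 3 Anergic libraries lay below all 3 Treg libraries for 15 members (21.7% of all genes) and above them for 5 (21.7%). With libraries scaled by total counts alone, 17 members were called lower and 0 higher, while the calls over all genes shifted the same way, to 3027 lower and 1324 higher.

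Compared with Naive cells, Anergic cells held less transcript of 17 of 31 members, against 21.3% of all genes, and more of 4, against 25.0%. In all, 46.2% of genes were called in this comparison, and the members' median log2 fold change was -0.47. The members called lower were Mvd, Idi1, Sqle, Fdps, Hmgcs1, Lss, Srebf2, Mvk, Lpcat3, Cyp51, Insig1, Msmo1, Fasn, Abca1, Acaca, Srebf1 and Scap. Those called higher were Scd2, Pmvk, Ebp and Stard4. All 3 Anergic libraries lay below all 3 Naive libraries for 21 members (25.0% of all genes) and above them for 3 (28.3%). The 3 comparisons share the Anergic libraries, so they are not independent of each other.

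**Figure D1:**
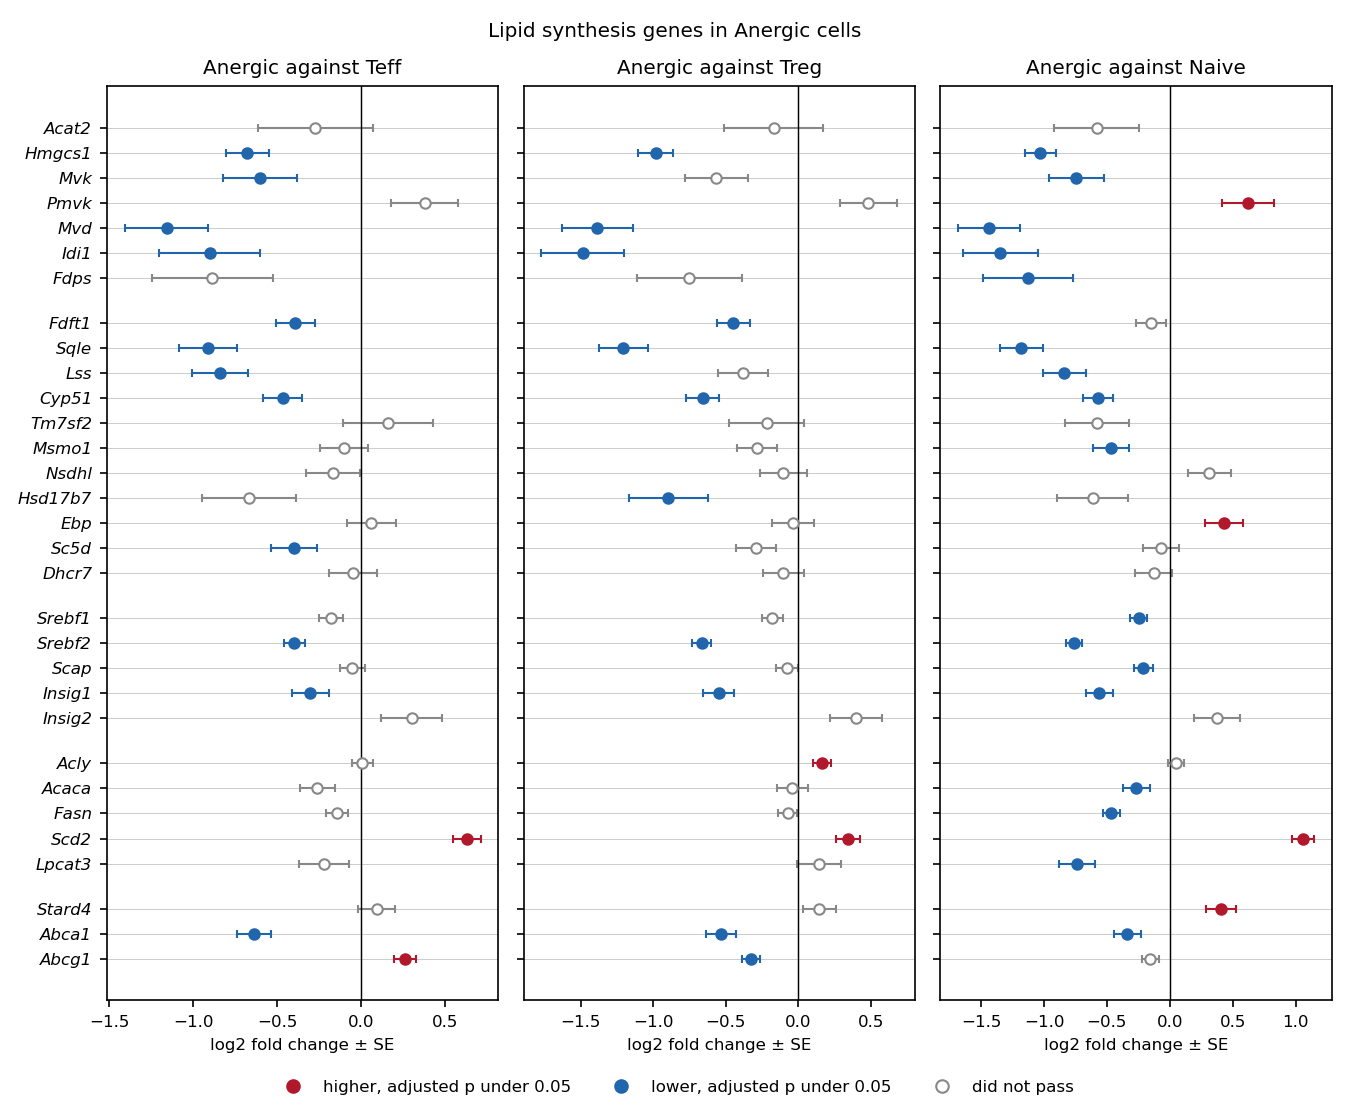
Log2 fold change of each of the 31 tested members in Anergic cells against Teff, Treg and Naive cells (x axes, points with bars of 1 standard error), ordered by role down the page. Filled points passed the test: 12 lower and 2 higher against Teff cells, 11 lower and 2 higher against Treg cells, and 17 lower and 4 higher against Naive cells.

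The other 3 comparisons held fewer called members. Treg against Teff cells gave 4 members higher (15% of all genes were) and 1 lower (14.1%), with 29.1% of all genes called. Treg against Naive cells gave 4 higher (19%) and 3 lower (13.9%), with 32.8% of all genes called. Teff against Naive cells gave 4 higher (19.2%) and 7 lower (15.7%), with 34.9% of all genes called. The members' median log2 fold changes were 0.02, -0.02 and -0.10 in this order. Without any overlap between libraries, 7 members were higher (21.4% of all genes) and 3 lower (20.2%) in Treg than in Teff cells. The same counts were 6 (24.7%) and 7 (20.3%) for Treg against Naive cells, and 4 (24%) and 11 (21.3%) for Teff against Naive cells. The split of calls depended on the scaling: with total counts alone it was 4 higher and 0 lower, 7 higher and 2 lower, and 6 higher and 4 lower, again in this order. With DESeq2 size factors it was 3 higher and 2 lower for Treg against Teff cells and 2 higher and 3 lower for Treg against Naive cells. Total counts alone also moved the median log2 fold change of all genes, to 0.038, 0.086 and 0.059 in the same order. The shares of all genes called under these scalings do not stand beside the splits, so the shifts cannot be read as particular to the members. Counts also moved with single libraries: the 5 calls of Treg against Teff cells became 3 without Treg 1 and 2 without Teff 1. The 7 calls of Treg against Naive cells became 4 without Treg 2, 3 without Naive 1 and 4 without Naive 2. The 11 calls of Teff against Naive cells became 7 without Teff 2 and 6 without Naive 1.

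The mevalonate genes make the isoprenoid building blocks. Hmgcs1 encodes the synthase that joins acetyl-CoA and acetoacetyl-CoA into HMG-CoA (chr13:119690379-119708260, plus strand). Its level was 13.3, 17.4 and 19.8 CPM in Anergic cells and 35.6, 30.7 and 33.2 in Treg cells. Teff cells had 24.7, 25.3 and 30.6 and Naive cells 34.6, 33.6 and 34.6 CPM. The Anergic libraries were below all 9 others. Hmgcs1 was 1.6-fold lower in Anergic than in Teff cells (-0.68 ± 0.13, adjusted p = 0.000186), 1.98-fold lower than in Treg cells (-0.98 ± 0.12, adjusted p = 7.14e-07) and 2.04-fold lower than in Naive cells (-1.03 ± 0.12, adjusted p = 2.24e-07). Treg cells were 1.24-fold higher than Teff cells (0.31 ± 0.11, adjusted p = 0.0472), a call that ended without Treg 1, Treg 3, Teff 1 or Teff 2 (adjusted p 0.106 to 0.189). Teff cells were 1.28-fold lower than Naive cells (-0.35 ± 0.12, adjusted p = 0.0209), which ended without Teff 1, Teff 2, Naive 1 or Naive 3 (adjusted p 0.0512 to 0.0948).

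Mvd encodes the decarboxylase that forms isopentenyl pyrophosphate (chr8:122433601-122443422, minus strand). Mvd stood at 3.18, 3.17 and 3.19 CPM in Anergic cells and 6.97, 8.49 and 9.64 in Treg cells. In Teff cells the values were 4.87, 8.8 and 7.78, and in Naive cells 7.17, 8.05 and 10.8 CPM. The 3 Anergic libraries were the lowest of the 12 and lay close together, with 24 to 27 counts each, while the Teff libraries spread widely. The gene was 2.23-fold lower in Anergic than in Teff cells (-1.16 ± 0.25, adjusted p = 0.000957), 2.61-fold lower than in Treg cells (-1.39 ± 0.24, adjusted p = 8.07e-05) and 2.7-fold lower than in Naive cells (-1.44 ± 0.25, adjusted p = 3.75e-05).

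Idi1, the isomerase that turns isopentenyl into dimethylallyl pyrophosphate (chr13:8885501-8892451, plus strand), had 1.06, 3.05 and 3.59 CPM in Anergic cells and 7.98, 5.57 and 7.76 in Treg cells. The Teff libraries held 4.99, 4.83 and 4.46 and the Naive libraries 5.79, 6.69 and 6.98 CPM. Its Anergic libraries were again below the other 9, with 9 to 27 counts each. It was 2.8-fold lower in Anergic than in Treg cells (-1.49 ± 0.29, adjusted p = 0.000237) and 2.54-fold lower than in Naive cells (-1.35 ± 0.29, adjusted p = 0.000561). Against Teff cells it was 1.87-fold lower (-0.90 ± 0.30, adjusted p = 0.0283), a call that ended without Anergic 1, Teff 1 or Teff 2 (adjusted p 0.0559 to 0.166).

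Pmvk, which encodes phosphomevalonate kinase, had 13.4, 9.98 and 11.8 CPM in Anergic cells and 9.09, 9.75 and 6.35 in Treg cells. Values of Pmvk were 10.1, 8.18 and 8.8 CPM in Teff cells and 10.3, 5.7 and 6.98 in Naive cells. The Anergic and Naive libraries overlapped, since Naive 1 lay above Anergic 2. It was 1.53-fold higher in Anergic than in Naive cells (0.62 ± 0.21, adjusted p = 0.0172), and the call ended without Anergic 1, Naive 2 or Naive 3 (adjusted p 0.0618 to 0.123).

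The remaining mevalonate genes were Mvk, Fdps and Acat2. Mvk, the mevalonate kinase gene, averaged 5.65 ± 0.742 CPM in Anergic cells, 8.32 ± 1.11 in Treg cells, 8.58 ± 0.64 in Teff cells and 9.54 ± 3.01 in Naive cells (SD, n = 3 each). Mvk was lower in Anergic than in Naive cells (-0.74 ± 0.22, adjusted p = 0.00729), with overlapping libraries, and than in Teff cells (-0.60 ± 0.22, adjusted p = 0.0435), where leaving out any 1 of Anergic 1, Anergic 2, Teff 1, Teff 2 or Teff 3 ended the call (adjusted p 0.0579 to 0.141). Fdps, the farnesyl pyrophosphate synthase gene, averaged 1.62 ± 0.433 CPM in Anergic cells, 2.73 ± 0.708 in Treg cells, 3.03 ± 0.743 in Teff cells and 3.59 ± 1.33 in Naive cells, and passed against Naive cells (-1.13 ± 0.36, adjusted p = 0.0122) but not without Naive 3 (adjusted p = 0.0801). Acat2, whose product joins 2 acetyl-CoA molecules, averaged between 2.53 CPM in Anergic and 3.81 CPM in Naive cells and passed in none of the 6 comparisons (adjusted p for a difference among the 4 subsets 0.452).

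Summed over the 7 mevalonate genes, the level was 44.1 ± 3.25 in Anergic cells, 70.9 ± 4.78 in Treg cells, 62.5 ± 3.87 in Teff cells and 74 ± 5.63 in Naive cells (CPM, SD, n = 3 each). The Anergic sums did not overlap with those of any other subset. Called as lower were 4 of 7 genes against Teff cells, 3 of 7 against Treg cells and 5 of 7 against Naive cells (12.7%, 15.3% and 21.3% of all genes in this order). The only mevalonate gene called in the direction of higher in Anergic cells was Pmvk, against Naive cells.

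**Figure D2:**
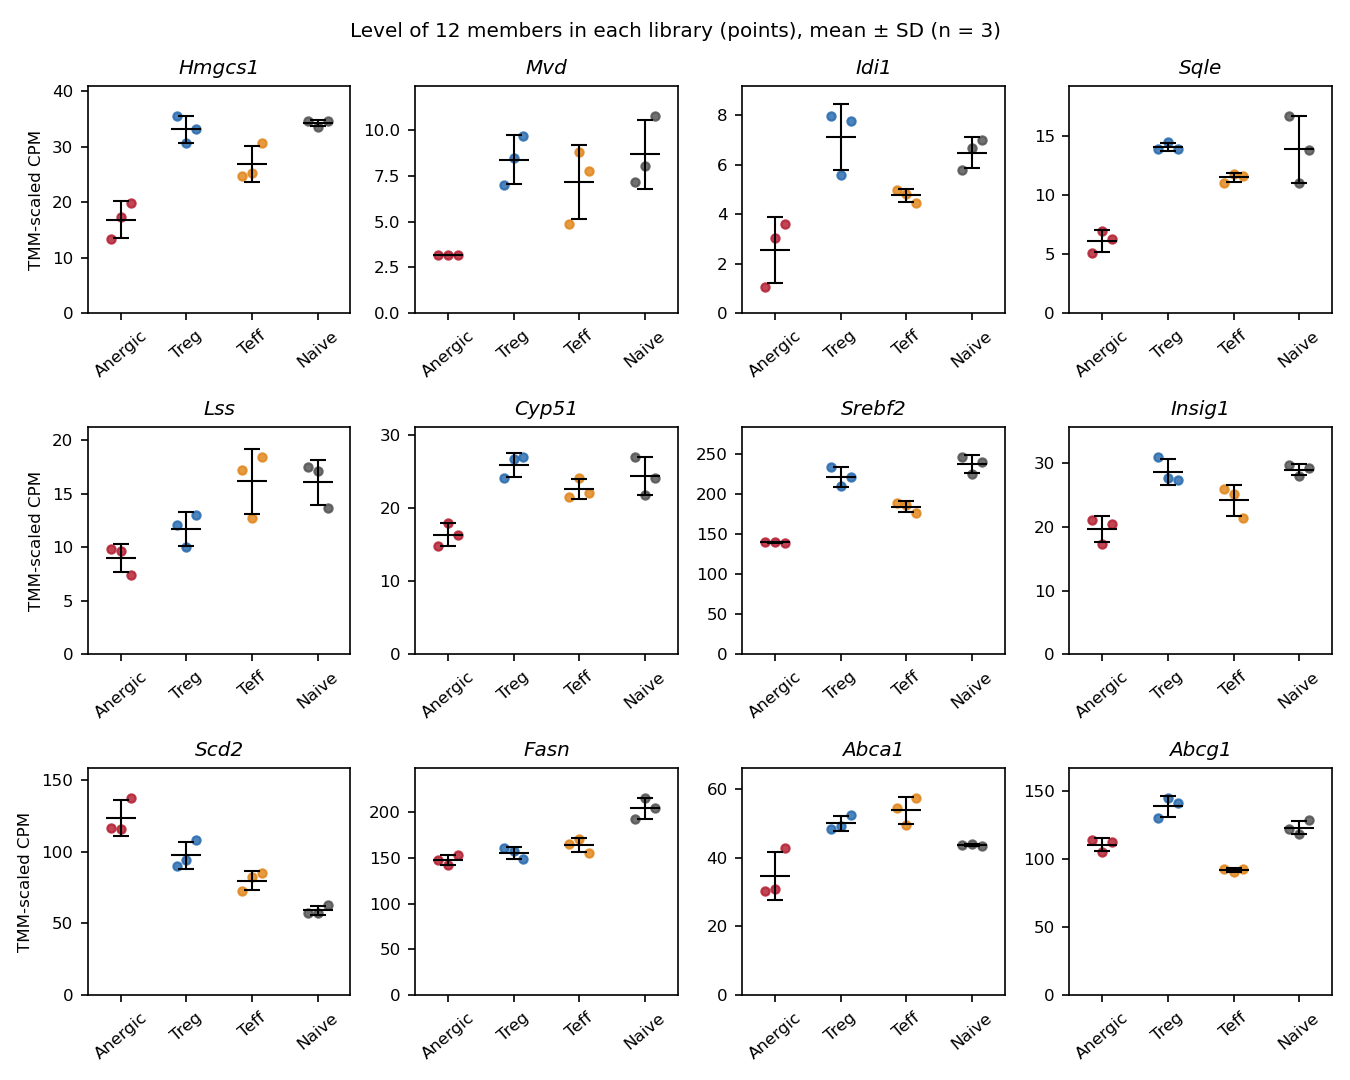
Level of 12 members in each of the 12 libraries (points, TMM-scaled CPM, y axes starting at 0), with the mean and SD of the 3 libraries of each subset as bars. Hmgcs1, Mvd, Idi1, Sqle, Lss, Cyp51, Srebf2, Insig1 and Abca1 have their 3 Anergic libraries below all other libraries, and Scd2 has them above.

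The later steps begin with squalene. Fdft1, the squalene synthase gene (chr14:63145150-63179578, minus strand), had 21.1, 20.5 and 21.6 CPM in Anergic cells and 32.8, 26 and 27 in Treg cells. It reached 26.3, 25.5 and 31.1 CPM in Teff cells and 22.2, 21.9 and 26.3 in Naive cells. The Anergic libraries were close to each other and below all others. Fdft1 was lower in Anergic than in Teff cells (-0.39 ± 0.12, adjusted p = 0.0127), though not without Teff 3 (adjusted p = 0.0913), and than in Treg cells (-0.45 ± 0.11, adjusted p = 0.00351), though not without Treg 1 (adjusted p = 0.0503). Treg exceeded Naive cells (0.30 ± 0.11, adjusted p = 0.0496), with overlapping libraries, and the call ended without Treg 1, Treg 3, Naive 1 or Naive 2 (adjusted p 0.0546 to 0.309).

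Sqle encodes squalene epoxidase, a rate-limiting enzyme of the later path (chr15:59315077-59331192, plus strand). Sqle stood at 5.06, 6.93 and 6.26 CPM in Anergic cells and 13.8, 14.4 and 13.9 in Treg cells. The Teff values were 11, 11.8 and 11.6 and the Naive values 16.7, 11 and 13.8 CPM. Every Anergic library was below every other library. The gene was 1.88-fold lower in Anergic than in Teff cells (-0.91 ± 0.17, adjusted p = 0.000251), 2.31-fold lower than in Treg cells (-1.21 ± 0.17, adjusted p = 4.18e-06) and 2.27-fold lower than in Naive cells (-1.18 ± 0.17, adjusted p = 4.12e-06). No difference among Treg, Teff and Naive cells passed the test for Sqle.

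Lss, the lanosterol synthase gene (chr10:76531588-76557138, plus strand), had 9.88, 9.63 and 7.45 CPM in Anergic cells and 12.1, 10 and 13.1 in Treg cells. Teff cells had 17.3, 12.8 and 18.5 and Naive cells 17.5, 17.1 and 13.7 CPM. Anergic libraries lay below Teff and Naive libraries, and just below the lowest Treg library. It was 1.79-fold lower in Anergic than in Teff cells (-0.84 ± 0.17, adjusted p = 0.000417) and 1.79-fold lower than in Naive cells (-0.84 ± 0.17, adjusted p = 0.000242), and against Treg cells the difference did not pass (-0.38 ± 0.17, adjusted p = 0.0983). Treg cells were lower than Teff cells (-0.46 ± 0.16, adjusted p = 0.0327), with overlapping libraries, and this ended without Treg 1, Treg 2, Teff 1 or Teff 3 (adjusted p 0.0564 to 0.158). They were also lower than Naive cells (-0.46 ± 0.16, adjusted p = 0.0326), which ended without Treg 1, Treg 2, Naive 1 or Naive 2 (adjusted p 0.0574 to 0.139).

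Cyp51 encodes the demethylase of lanosterol (chr5:4081145-4104746, minus strand), and averaged 16.3 ± 1.57 CPM in Anergic cells, 25.9 ± 1.61 in Treg cells, 22.6 ± 1.38 in Teff cells and 24.3 ± 2.61 in Naive cells (SD, n = 3 each). Its Anergic libraries did not overlap with the others. The log2 fold change in Anergic cells was -0.47 ± 0.12 (adjusted p = 0.00367) against Teff cells, -0.66 ± 0.11 (adjusted p = 6.37e-05) against Treg cells and -0.57 ± 0.12 (adjusted p = 0.00028) against Naive cells. No other comparison passed for this gene.

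The enzymes after lanosterol remove methyl groups and move double bonds. Tm7sf2, a sterol reductase gene, had 3.76, 3.29 and 3.46 CPM in Anergic cells and 3.74, 4.56 and 4 in Treg cells. In Teff cells the values were 3.36, 2.23 and 3.82, and in Naive cells 4.27, 5.58 and 5.92 CPM. No Teff library overlapped with a Naive library, and Tm7sf2 was lower in Teff than in Naive cells (-0.74 ± 0.26, adjusted p = 0.029), which ended without Teff 2, Naive 2 or Naive 3 (adjusted p 0.0859 to 0.138). Nsdhl, a sterol dehydrogenase gene, had 9.17, 10.3 and 9.98 CPM in Anergic cells and 11.6, 9.63 and 10.3 in Treg cells. The Teff libraries held 11.1, 10.3 and 11.7 and the Naive libraries 6.07, 8.43 and 9.26 CPM. Teff libraries were above Naive libraries (0.48 ± 0.17, adjusted p = 0.0293), and the call ended without Teff 1, Teff 3 or Naive 1 (adjusted p 0.0565 to 0.173).

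Ebp, the sterol isomerase gene, had 16.8, 23.2 and 22.1 CPM in Anergic cells and 20.7, 23.8 and 19.3 in Treg cells. Values of Ebp were 16, 21.8 and 21.9 CPM in Teff cells and 14.3, 17.7 and 13.8 in Naive cells. Anergic and Naive libraries overlapped, and Treg and Naive libraries did not. It was 1.35-fold higher in Anergic than in Naive cells (0.43 ± 0.15, adjusted p = 0.0235), which ended without Anergic 2, Anergic 3, Naive 1 or Naive 3 (adjusted p 0.0753 to 0.117). It was 1.38-fold higher in Treg than in Naive cells (0.47 ± 0.15, adjusted p = 0.0188), which ended without Treg 2, Naive 1 or Naive 3 (adjusted p 0.0709 to 0.0955).

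Among the rest of these steps, Msmo1 averaged 13.3 ± 1.57 CPM in Anergic cells, 16.1 ± 2.07 in Treg cells, 14.3 ± 1.82 in Teff cells and 18.4 ± 1.59 in Naive cells (SD, n = 3 each). Msmo1, a methylsterol oxidase gene, was lower in Anergic than in Naive cells (-0.47 ± 0.14, adjusted p = 0.00902), though not without Anergic 1 (adjusted p = 0.0502). It was also lower in Teff than in Naive cells (-0.36 ± 0.14, adjusted p = 0.047), where leaving out Teff 1, Teff 2, Teff 3, Naive 1 or Naive 3 ended the call (adjusted p 0.0511 to 0.228). Hsd17b7 averaged 2.5 ± 0.283 CPM in Anergic cells, 4.67 ± 0.963 in Treg cells, 3.98 ± 0.985 in Teff cells and 3.81 ± 0.409 in Naive cells. This reductase gene was lower in Anergic than in Treg cells (-0.90 ± 0.27, adjusted p = 0.0131), though not without Anergic 2 or Treg 3 (adjusted p 0.0532 to 0.0895). Sc5d, a sterol desaturase gene, averaged 19.2 ± 1.65 CPM in Anergic cells, 23.4 ± 2.81 in Treg cells, 25.3 ± 1.73 in Teff cells and 20.2 ± 4.65 in Naive cells. It passed as lower in Anergic than in Teff cells (-0.40 ± 0.14, adjusted p = 0.034), which ended without Anergic 1, Anergic 2, Teff 2 or Teff 3 (adjusted p 0.0739 to 0.117). Dhcr7, whose product carries out a late step of the path, averaged 18.8 ± 4.11 CPM in Anergic cells, 20.1 ± 0.582 in Treg cells, 19.4 ± 3.48 in Teff cells and 20.5 ± 1.71 in Naive cells and passed in none of the 6 comparisons.

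Over the 11 genes of these later steps the summed level was 140.3 ± 10.4 in Anergic cells, 181 ± 4.92 in Treg cells, 175 ± 13.8 in Teff cells and 169 ± 8.27 in Naive cells (CPM, SD, n = 3 each). The calls in Anergic cells were 0 higher and 5 lower against Teff cells, 0 higher and 4 lower against Treg cells, and 1 higher and 4 lower against Naive cells. Of all genes, 13.9%, 15.6% and 25.0% were higher and 12.7%, 15.3% and 21.3% lower in these comparisons. Among the other subsets there were 0 higher and 1 lower for Treg against Teff cells, 2 higher and 1 lower for Treg against Naive cells, and 1 higher and 2 lower for Teff against Naive cells. The shares of all genes there were 15% higher and 14.1% lower, 19% and 13.9%, and 19.2% and 15.7%, so these few calls of 11 stood near the background.

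**Figure D3:**
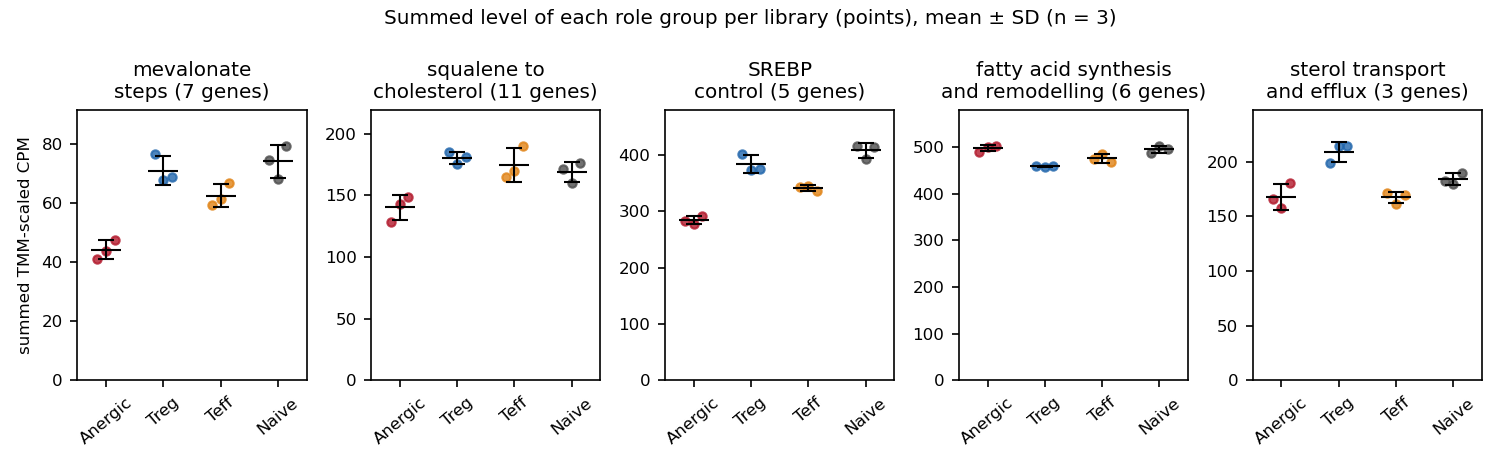
Summed level of each role group in each library (points, TMM-scaled CPM, y axes starting at 0), with the mean and SD of 3 libraries per subset as bars. The Anergic sums are the lowest for the mevalonate steps (41.1 to 47.5 CPM), the later sterol steps (129 to 149 CPM) and SREBP control (277 to 291 CPM), and not for fatty acid synthesis or transport.

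Of the control genes, Srebf2 encodes SREBP2, the transcription factor of the sterol genes (chr15:82147181-82205379, plus strand), and had 140.0, 139.9 and 139 CPM in Anergic cells and 234, 209 and 221 in Treg cells. It reached 189, 186 and 176 CPM in Teff cells and 247, 225 and 239.8 in Naive cells. The 3 Anergic libraries were almost equal and below all others, and Teff libraries were below Treg and Naive libraries. Srebf2 was 1.32-fold lower in Anergic than in Teff cells (-0.40 ± 0.064, adjusted p = 3.16e-05), 1.59-fold lower than in Treg cells (-0.67 ± 0.064, adjusted p = 1.05e-08) and 1.7-fold lower than in Naive cells (-0.76 ± 0.064, adjusted p = 5.21e-10). It was 1.2-fold higher in Treg than in Teff cells (0.27 ± 0.063, adjusted p = 0.00178) and 1.29-fold lower in Teff than in Naive cells (-0.36 ± 0.063, adjusted p = 5.77e-05). Between Treg and Naive cells the difference did not pass (-0.097 ± 0.062, adjusted p = 0.261). Each of these 5 Srebf2 calls stood under all 14 alternative settings tried.

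Srebf1, which encodes SREBP1 (chr11:60199089-60222581, minus strand), varied less. Its level was 65.5, 60.7 and 70.8 CPM in Anergic cells and 75.5, 76.8 and 70.7 in Treg cells. The Teff values were 71.5, 76.7 and 74.7 and the Naive values 77.1, 77.2 and 79.7 CPM. Anergic and Treg libraries overlapped, since Anergic 3 and Treg 3 were nearly equal. It passed as lower in Anergic than in Naive cells (-0.25 ± 0.071, adjusted p = 0.00555). Against Teff cells (-0.18 ± 0.07, adjusted p = 0.0619) and Treg cells (-0.18 ± 0.07, adjusted p = 0.0539) it did not pass.

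Insig1, itself an SREBP target that retains SCAP in the endoplasmic reticulum (chr5:28071363-28078662, plus strand), had 21.1, 17.4 and 20.5 CPM in Anergic cells and 31, 27.7 and 27.3 in Treg cells. Teff cells had 26, 25.2 and 21.4 and Naive cells 29.6, 28 and 29.3 CPM. The lowest Teff library was just above the highest Anergic library. It was 1.46-fold lower in Anergic than in Treg cells (-0.55 ± 0.11, adjusted p = 0.000275) and 1.48-fold lower than in Naive cells (-0.56 ± 0.11, adjusted p = 0.000166). Against Teff cells it was 1.23-fold lower (-0.30 ± 0.11, adjusted p = 0.0441), which ended without Anergic 2, Anergic 3, Teff 1 or Teff 2 (adjusted p 0.0529 to 0.202).

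Insig2, a second retention factor, had 10.2, 10.2 and 9.19 CPM in Anergic cells and 8.39, 8.23 and 5.88 in Treg cells. In Teff cells the values were 7.89, 6.69 and 9.56, and in Naive cells 7.17, 7.68 and 8.04 CPM. Anergic libraries lay above the Treg and Naive libraries, but the differences did not pass against Teff (0.30 ± 0.18, adjusted p = 0.243), Treg (0.40 ± 0.18, adjusted p = 0.0992) or Naive cells (0.37 ± 0.18, adjusted p = 0.0999). Scap, the escort protein gene, had 46.1, 48.7 and 52 CPM in Anergic cells and 52.7, 51.3 and 50.8 in Treg cells. The Teff libraries held 48.1, 50.3 and 54.1 and the Naive libraries 56.4, 55.5 and 58 CPM. Anergic and Naive libraries did not overlap, and Scap was lower in Anergic than in Naive cells (-0.21 ± 0.074, adjusted p = 0.0236), which ended without Anergic 1, Anergic 2 or Naive 3 (adjusted p 0.0576 to 0.0938). Over the 5 control genes, 2 passed as lower against Teff cells, 2 against Treg cells and 4 against Naive cells, with 0 higher in each. Of all genes, 12.7%, 15.3% and 21.3% were lower and 13.9%, 15.6% and 25.0% higher. The summed level was 284 ± 7.18 in Anergic cells, 384 ± 15.6 in Treg cells, 341 ± 4.6 in Teff cells and 408 ± 13.2 in Naive cells (CPM).

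The genes of fatty acid synthesis did not share that order. Scd2 encodes a stearoyl-CoA desaturase (chr19:44293674-44306864, plus strand), and had 116, 116 and 138 CPM in Anergic cells and 89.7, 94 and 108 in Treg cells. Values of Scd2 were 72.5, 81.9 and 84.9 CPM in Teff cells and 56.9, 57.5 and 62.7 in Naive cells. Anergic libraries were above all others and Naive libraries below all others. It was 1.54-fold higher in Anergic than in Teff cells (0.63 ± 0.083, adjusted p = 2.39e-06), 1.27-fold higher than in Treg cells (0.34 ± 0.082, adjusted p = 0.00213) and 2.09-fold higher than in Naive cells (1.06 ± 0.086, adjusted p = 3.2e-10). With total counts alone as the scale, the difference between Anergic and Treg cells did not pass (adjusted p = 0.0569). Scd2 was also higher in Treg than in Teff cells (0.29 ± 0.084, adjusted p = 0.0111), which ended without Treg 3 or Teff 1 (adjusted p 0.0893 to 0.12). It was higher in Treg than in Naive cells (0.72 ± 0.087, adjusted p = 3.79e-07) and in Teff than in Naive cells (0.43 ± 0.088, adjusted p = 0.000388).

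Scd1, its neighbour on chromosome 19 and a close paralogue, had 7, 3 and 7 counts in Anergic cells, 5, 0 and 9 in Treg cells, 3, 5 and 1 in Teff cells and 2, 0 and 0 in Naive cells. These counts are too few for a test. Reads that match both paralogues could have been assigned to either or left out.

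Fasn encodes fatty acid synthase (chr11:120805846-120824547, minus strand), and had 148, 142 and 153 CPM in Anergic cells and 160.4, 157 and 148 in Treg cells. It reached 165, 170.4 and 155 CPM in Teff cells and 192, 215 and 204 in Naive cells. Naive libraries were above all others, and the other 3 subsets overlapped or lay close together. It was 1.38-fold lower in Anergic than in Naive cells (-0.47 ± 0.065, adjusted p = 2.28e-06), 1.31-fold lower in Treg than in Naive cells (-0.39 ± 0.065, adjusted p = 3.31e-05) and 1.25-fold lower in Teff than in Naive cells (-0.32 ± 0.065, adjusted p = 0.000376). Between Anergic and Teff cells (-0.15 ± 0.065, adjusted p = 0.105) and between Anergic and Treg cells (-0.072 ± 0.065, adjusted p = 0.443) it did not pass.

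Lpcat3, which places polyunsaturated chains into phospholipids, was likewise highest in Naive cells, at 10.7, 13 and 11.3 CPM in Anergic cells and 8.79, 10.8 and 12.3 in Treg cells. The Teff values were 15.3, 12.5 and 13 and the Naive values 20.4, 18.6 and 19.4 CPM. No Naive library overlapped with another subset. Lpcat3 was lower in Anergic than in Naive cells (-0.73 ± 0.14, adjusted p = 0.000166), in Treg than in Naive cells (-0.88 ± 0.14, adjusted p = 3.08e-05) and in Teff than in Naive cells (-0.51 ± 0.14, adjusted p = 0.0058).

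Acly supplies cytosolic acetyl-CoA from citrate, and had 191, 205 and 179.8 CPM in Anergic cells and 175, 173 and 165 in Treg cells. Teff cells had 195, 193 and 184 and Naive cells 188, 183 and 185 CPM. All Anergic libraries lay above the Treg libraries, by little: Acly was 1.12-fold higher in Anergic than in Treg cells (0.16 ± 0.062, adjusted p = 0.0498), and leaving out Anergic 1, Anergic 2, Treg 1, Treg 2 or Treg 3 ended the call (adjusted p 0.0589 to 0.244), as did scaling by total counts. Acaca, the acetyl-CoA carboxylase gene, averaged 23.5 ± 2.3 CPM in Anergic cells, 24.3 ± 0.846 in Treg cells, 28.3 ± 1.86 in Teff cells and 28.3 ± 2.76 in Naive cells (SD, n = 3 each). Acaca passed as lower in Anergic than in Naive cells (-0.27 ± 0.11, adjusted p = 0.043), which ended without Anergic 3, Naive 1 or Naive 2 (adjusted p 0.119 to 0.186). The summed level of the 6 genes was 498 ± 7.14 in Anergic cells, 459 ± 0.553 in Treg cells, 476 ± 9.03 in Teff cells and 496 ± 7.83 in Naive cells (CPM). These sums overlapped between Anergic and Naive cells, and Scd2 and Fasn moved in opposite directions.

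Among the transport genes, Abca1 encodes the transporter that passes cholesterol to lipid-poor apolipoproteins (chr4:53030787-53159895, minus strand). Abca1 had 30.3, 30.9 and 42.9 CPM in Anergic cells and 48.3, 49.2 and 52.6 in Treg cells. In Teff cells the values were 54.4, 49.6 and 57.5, and in Naive cells 43.7, 43.9 and 43.4 CPM. Anergic 3 stood well above the other 2 Anergic libraries, close to the Naive libraries, and no Anergic library overlapped with another subset. It was 1.56-fold lower in Anergic than in Teff cells (-0.64 ± 0.10, adjusted p = 2.99e-05), 1.45-fold lower than in Treg cells (-0.53 ± 0.10, adjusted p = 0.000223) and 1.26-fold lower than in Naive cells (-0.34 ± 0.11, adjusted p = 0.0108), the last of which ended without Anergic 1 or Anergic 2 (adjusted p 0.0644 to 0.0725). Teff cells were higher than Naive cells (0.30 ± 0.10, adjusted p = 0.0222), and this ended without Teff 3, Naive 1, Naive 2 or Naive 3 (adjusted p 0.0512 to 0.0982).

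Abcg1, which exports sterol to high-density lipoprotein particles, had 113, 105 and 112 CPM in Anergic cells and 129.6, 145 and 141 in Treg cells. The Teff libraries held 92.8, 90.4 and 92.7 and the Naive libraries 122, 118 and 128 CPM. Teff libraries were below all others and Treg libraries above all others. It was 1.2-fold higher in Anergic than in Teff cells (0.26 ± 0.065, adjusted p = 0.00364), a difference that did not pass with total counts alone as the scale (adjusted p = 0.14), and 1.25-fold lower in Anergic than in Treg cells (-0.33 ± 0.064, adjusted p = 0.000274). It was 1.5-fold higher in Treg than in Teff cells (0.59 ± 0.064, adjusted p = 9.35e-08) and 1.34-fold lower in Teff than in Naive cells (-0.42 ± 0.065, adjusted p = 1.68e-05). The small excess of Treg over Naive cells (0.17 ± 0.064, adjusted p = 0.0414) ended without Treg 2, Treg 3, Naive 1 or Naive 2 (adjusted p 0.0976 to 0.172). Between Anergic and Teff cells the 2 efflux genes thus differed in opposite directions.

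Stard4, which carries cholesterol between membranes, had 22.2, 21.5 and 25.7 CPM in Anergic cells and 20.6, 21 and 21 in Treg cells. Values of Stard4 were 24.1, 21.3 and 19.5 CPM in Teff cells and 16.7, 17 and 18.7 in Naive cells. Every Anergic, Treg and Teff library was above every Naive library. It was 1.33-fold higher in Anergic than in Naive cells (0.41 ± 0.12, adjusted p = 0.00576) and 1.24-fold higher in Teff than in Naive cells (0.32 ± 0.12, adjusted p = 0.0382), and the second call ended without Teff 1, Teff 2, Naive 1 or Naive 2 (adjusted p 0.061 to 0.171). Between Treg and Naive cells it did not pass (0.26 ± 0.12, adjusted p = 0.0903). The 3 transport genes summed to 168 ± 11.9 in Anergic cells, 209 ± 9.3 in Treg cells, 167 ± 5.39 in Teff cells and 184 ± 5.59 in Naive cells (CPM).

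**Figure D4:**
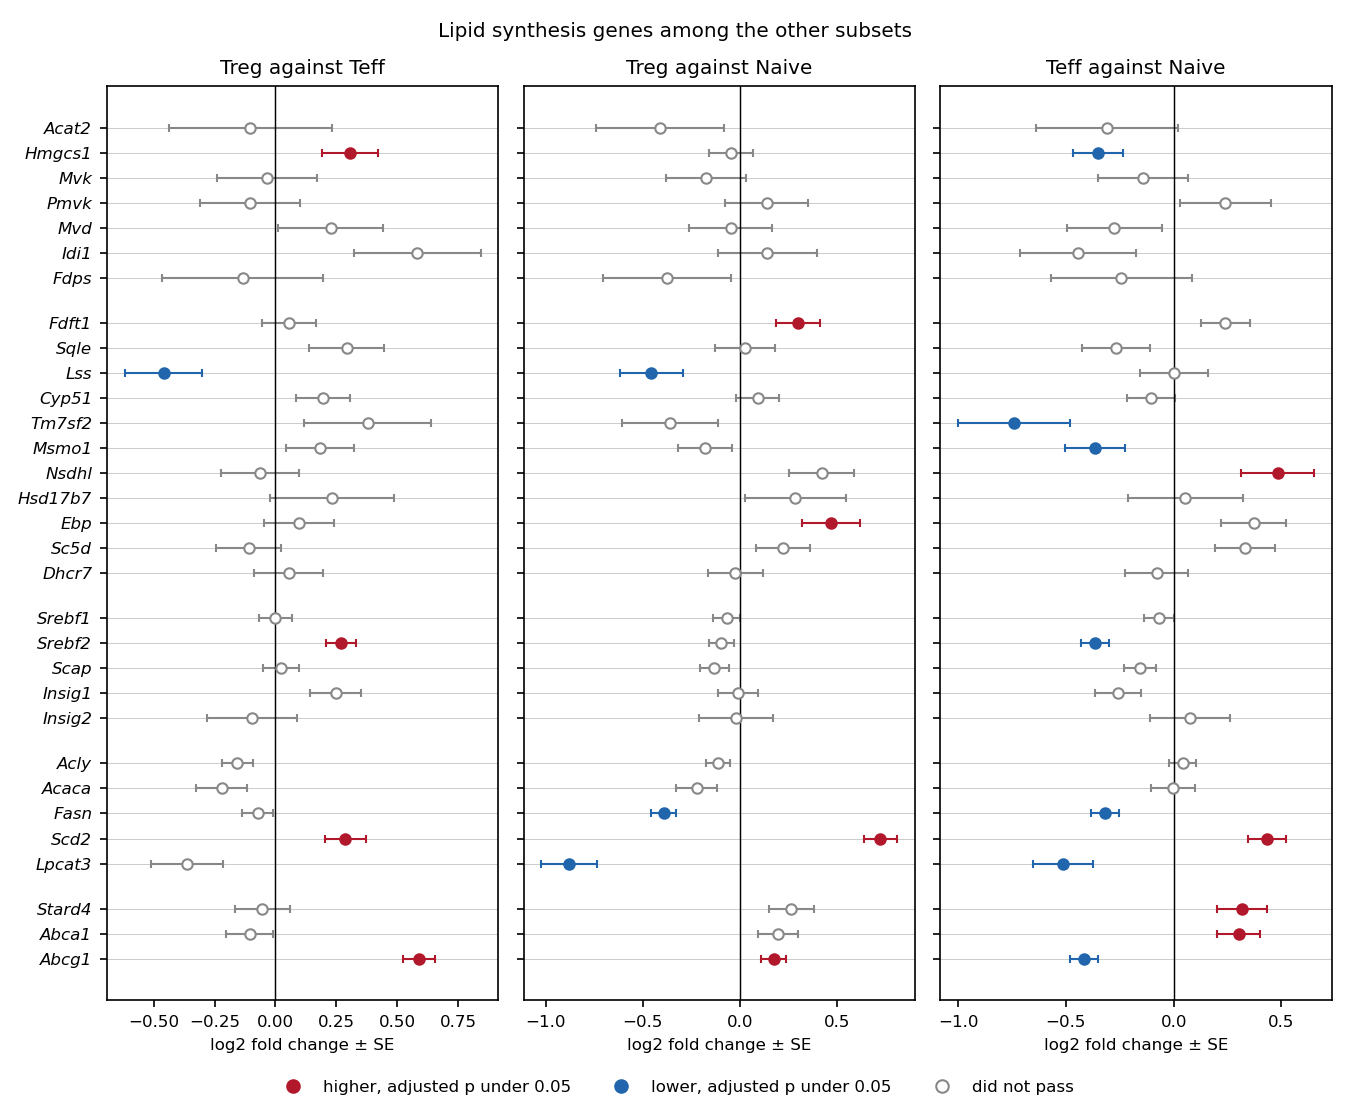
Log2 fold change of each of the 31 tested members in Treg against Teff, Treg against Naive and Teff against Naive cells (x axes, points with bars of 1 standard error), ordered by role down the page. Filled points passed the test: 4 higher and 1 lower, 4 higher and 3 lower, and 4 higher and 7 lower, in this order.

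Levels of different genes were compared per kilobase of exon (CPM per kb). The length joins the annotated exons of all transcripts of a gene, whether or not these cells use them, so ranks between genes are approximate. Acly was the most abundant member in each subset, with means of 36.3, 32.4, 36.1 and 35.1 CPM per kb in Anergic, Treg, Teff and Naive cells in this order. Srebf2 followed at 19.4, 30.8, 25.6 and 33 CPM per kb in the same order, except that Scd2, at 22.5, 17.8, 14.6 and 10.8 CPM per kb, exceeded it in Anergic cells. Within the cholesterol path, Ebp was the most abundant gene in Anergic cells at 8.97 CPM per kb and Fdps the least at 0.385, while Hmgcs1 was the most abundant in Naive cells at 7.46. Per length, Srebf2 exceeded Srebf1 in every subset, with 19.4 against 11.7 CPM per kb in Anergic cells and 33.0 against 13.8 CPM per kb in Naive cells.

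**Figure D5:**
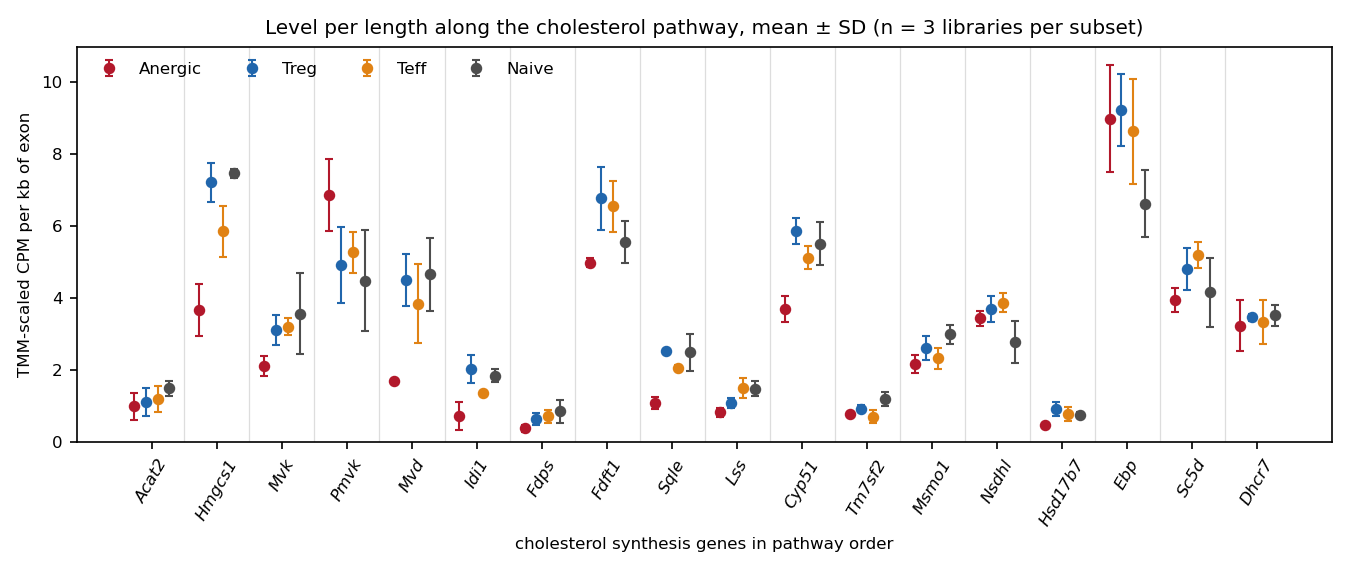
Mean level of 18 cholesterol synthesis genes in pathway order (x axis) in TMM-scaled CPM per kb of exon (y axis), with bars of 1 SD over the 3 libraries of each subset. Anergic cells are lowest, among other genes, at Hmgcs1, Mvd, Idi1, Sqle, Lss and Cyp51, with values of 3.66, 1.71, 0.733, 1.10, 0.833 and 3.70 CPM per kb in this order, and highest at Pmvk.

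Other genes of the same pathways came from 6 further lists. Shares in parentheses after a count are those of all genes called higher and lower in the same comparison. Of 12 tested genes of other sterol synthesis and uptake, 1 rose and 3 fell in Anergic cells against Teff cells (all genes 13.9% and 12.7%), 0 were higher and 4 lower than in Treg cells (15.6% and 15.3%), and 0 higher and 9 lower than in Naive cells (25.0% and 21.3%). Npc2, which moves cholesterol out of lysosomes, averaged 63.4 ± 6.17 CPM in Anergic cells, 108 ± 5.2 in Treg cells, 79.1 ± 8.95 in Teff cells and 187 ± 8.25 in Naive cells, and was 2.95-fold lower in Anergic than in Naive cells (-1.56 ± 0.081, adjusted p = 7.99e-14). Of the 11 tested genes of SREBP processing and sterol sensing, 2 were higher in Anergic than in Teff cells, 1 than in Treg cells and 4 than in Naive cells, with 0 lower in each, against 13.9%, 15.6% and 25.0% of all genes called higher and 12.7%, 15.3% and 21.3% called lower.

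Of 22 tested genes of other fatty acid synthesis, elongation and desaturation, 1 rose and 3 fell in Anergic cells against Teff cells (all genes 13.9% and 12.7%), 3 were higher and 5 lower than in Treg cells (15.6% and 15.3%), and 5 higher and 5 lower than in Naive cells (25.0% and 21.3%). Acss2, which makes acetyl-CoA from acetate and is an SREBP target, averaged 15.5 ± 1.75 CPM in Anergic cells, 29.6 ± 4.93 in Treg cells, 36.3 ± 2.22 in Teff cells and 61.7 ± 6.3 in Naive cells (SD, n = 3 each). It was 2.35-fold lower in Anergic than in Teff cells (-1.23 ± 0.12, adjusted p = 3.24e-08), 1.91-fold lower than in Treg cells (-0.94 ± 0.13, adjusted p = 2.45e-06) and 3.98-fold lower than in Naive cells (-1.99 ± 0.12, adjusted p = 1.24e-12). Hacd3, a fatty acid elongation gene, was higher in Anergic than in Teff cells (0.59 ± 0.088, adjusted p = 1.35e-05).

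Of the 13 tested genes of liver X receptors, oxysterols and esterification, 3 rose and 4 fell in Anergic cells against Teff cells (all genes 13.9% and 12.7%), 8 were higher and 2 lower than in Treg cells (15.6% and 15.3%), and 7 higher and 4 lower than in Naive cells (25.0% and 21.3%). Mylip, a liver X receptor target that encodes a ubiquitin ligase, averaged 66.7 ± 1.63 CPM in Anergic cells, 54.4 ± 2.73 in Treg cells, 98.1 ± 5.16 in Teff cells and 91.7 ± 1.7 in Naive cells (SD, n = 3 each). Mylip was lower in Anergic cells both against Teff cells (-0.56 ± 0.066, adjusted p = 4.54e-07) and against Naive cells (-0.46 ± 0.067, adjusted p = 3.93e-06). Its mean in Treg cells was lower still. Soat2, a cholesterol esterification gene, stood at 1.84 ± 0.604 CPM in Anergic cells, 0.548 ± 0.511 in Treg cells, 13.9 ± 0.375 in Teff cells and 0.0413 ± 0.0715 in Naive cells, so that it was found chiefly in Teff cells. Gpr183, a receptor for an oxysterol, was 1.4-fold higher in Anergic than in Teff cells (0.48 ± 0.08, adjusted p = 4.73e-05).

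Of 16 tested regulators of the AKT, mTORC1 and AMPK pathways, 1 rose and 5 fell in Anergic cells against Teff cells (all genes 13.9% and 12.7%), 0 were higher and 2 lower than in Treg cells (15.6% and 15.3%), and 1 higher and 4 lower than in Naive cells (25.0% and 21.3%). Myc averaged 26.9 ± 5.35 CPM in Anergic cells, 96.8 ± 6.46 in Treg cells, 42 ± 1.18 in Teff cells and 80 ± 7.51 in Naive cells (SD, n = 3 each), and was 1.57-fold lower in Anergic than in Teff cells (-0.65 ± 0.11, adjusted p = 6.07e-05), 3.62-fold lower than in Treg cells (-1.86 ± 0.10, adjusted p = 6.76e-13) and 2.99-fold lower than in Naive cells (-1.58 ± 0.10, adjusted p = 7.79e-12). Of 9 tested genes of fatty acid oxidation, 2 rose and 0 fell in Anergic cells against Teff cells (all genes 13.9% and 12.7%), 3 were higher and 0 lower than in Treg cells (15.6% and 15.3%), and 4 higher and 2 lower than in Naive cells (25.0% and 21.3%). Cpt1a, the gatekeeper of mitochondrial import of fatty acids, averaged 50.9 ± 6.33 CPM in Anergic cells, 36.4 ± 1.34 in Treg cells, 41.7 ± 2.74 in Teff cells and 34 ± 4.21 in Naive cells, and was higher in Anergic than in Treg cells (0.48 ± 0.097, adjusted p = 0.000422) and than in Naive cells (0.58 ± 0.1, adjusted p = 4.07e-05).

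Markers of dividing cells and of other cell types also differed between the subsets, and their part in the results above was not tested. The summed level of 20 cell cycle genes was 727 to 874 CPM in Anergic cells, 704 to 724 CPM in Treg cells, 827 to 952 CPM in Teff cells and 465 to 473 CPM in Naive cells. Of these 20 genes, 1 rose and 12 fell in Anergic cells against Teff cells (all genes 13.9% and 12.7%). Against Naive cells 15 were higher and 1 lower (25.0% and 21.3%). Against Treg cells 4 were higher and 1 lower (15.6% and 15.3%), so the higher calls there stood near the background. The summed level of 7 markers of NK and innate-like T cells was 42.9 to 47.8 CPM in Anergic cells, 4.23 to 5.95 CPM in Treg cells, 205 to 268 CPM in Teff cells and 8.41 to 10.9 CPM in Naive cells. For 7 B cell markers it was 220.0 to 282 CPM in Anergic cells, 408 to 498 CPM in Treg cells, 180.3 to 197 CPM in Teff cells and 198 to 226 CPM in Naive cells, most of it Ighm. Cd22 averaged 27.9 CPM in Anergic cells, 2.87 in Treg cells, 12.6 in Teff cells and 0.101 in Naive cells, and the defining gene Ms4a1 averaged at most 0.486 CPM in any subset. For 12 myeloid and dendritic cell markers it was 8.65 to 13.9 CPM in Anergic cells, 6 to 9.5 CPM in Treg cells, 14.4 to 16.4 CPM in Teff cells and 7.58 to 8.55 CPM in Naive cells. The 2 CD8 T cell markers summed to 5.06 to 5.87 CPM in Anergic cells, 9.88 to 11.8 CPM in Treg cells, 3.71 to 6.25 CPM in Teff cells and 12.6 to 17.1 CPM in Naive cells, and Cd8a averaged at most 0.73 CPM in any subset. The 6 erythroid markers summed to at most 0.911 CPM in any library, and of the 6 stromal and endothelial markers only Pecam1 was above 2 CPM in any subset's mean.

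Counting by gene could mix reads of overlapping genes, since the strand setting of the counting is not given in the sources used here. In the GENCODE annotation of GRCm38, 8 members share exon bases with a gene on the opposite strand and 4 with a gene on the same strand. The largest shares are 26.7% of the Fdps exons (same strand, Gm43738), 18.3% of the Fdft1 exons (opposite strand, Ctsb), 13.2% of the Scap exons (opposite strand), 12.1% of the Hmgcs1 exons (opposite strand, Gm48342) and 12.1% of the Tm7sf2 exons (same strand, Vps51). Acat2 also has a near-identical neighbour, Acat3, and its level is uncertain for that reason. Mvd, Sqle, Srebf2, Insig1, Fasn and Abca1 share no exon base with another annotated gene.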

How the data were processed

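Total RNA of sorted CD4 T cells was made into stranded libraries with the Takara SMARTer Pico v2 kit and sequenced as paired ends, per the labels' protocols. The authors deposited raw counts per gene for the 12 libraries in 1 table. Reads were trimmed with Trimmomatic, aligned with HISAT2 and counted with featureCounts, per the series' design text, on GRCm38 (mm10), per the submitters' processing notes. Which annotation and which strand setting featureCounts used is not given here. Chromatin accessibility libraries were not analysed here, and 0 columns of the table went unused.

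From the deposited counts, edgeR 4.0.16 in R 4.3.3 scaled the libraries (TMM), kept 13393 genes (filterByExpr, minimum count 10, minimum total 15) and fitted the means of the 4 subsets to all 12 libraries. Each pair of subsets was tested with the quasi-likelihood test, Benjamini-Hochberg adjusted over all genes tested, and called at an adjusted p below 0.05. DESeq2 1.42.0, other scalings and filters, a replicate block and leaving out each library were tried as alternatives, and none changed the sign of a called member's difference or of that of a named pathway gene. In 12 simulated tables of the Anergic against Teff comparison, with 13006 to 13039 genes and 100 genes changed per fold size, 84.8% of 2-fold and 99.2% of 4-fold changes were called. The false calls were 5.88% of all calls, at 4 to 20 per table. All other genes were left unchanged in these tables, unlike in the real comparison, and no change below 2-fold was simulated. The shares therefore do not cover the smaller differences called for many members. Counting error alone limits genes with few counts such as Mvd, Idi1 and Fdps.

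Replicate libraries were not copies of each other, with a chi-square per degree of freedom of 2.20 or more, so each was kept as a replicate. Exon lengths, positions and overlaps came from GENCODE M21 (GRCm38), and promoter windows from RefSeq. The members and gene lists were chosen with earlier results of these data known. Values in every library are given for called members that averaged 5 CPM or more in the higher subset, up to 4 highest and 4 lowest log2 fold changes per comparison, and for 10 fixed members. Other members are given by means, and from each pathway list up to 2 higher and 2 lower called genes with the smallest adjusted p per comparison could be named. Some genes of these lists are not reported here.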

Additional observations from a re-analysis of the deposited data

How the results depend on the processing

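The member differences that passed the test kept their direction under every alternative setting tried: 860 such values stayed past the threshold, 131 did not, and 0 reversed. The settings were DESeq2, DESeq2 size factors in edgeR, total counts alone, no filter on low counts, at least 5 CPM in 3 libraries, a replicate block, removal of the entries above 1% of counts, only the 2 subsets compared, and leaving out each library. For the named genes of the pathway lists, 1395 such values stayed past the threshold, 65 did not, and 0 reversed. The members called in Teff against Naive cells numbered 11 in the main setting and 7 with DESeq2. The count over all genes with DESeq2 is not given here, so the second number has no background beside it.

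Leaving out 1 library each gave 10 to 14 called members for Anergic against Teff cells, 11 to 14 for Anergic against Treg cells and 17 to 20 for Anergic against Naive cells. It gave 2 to 4 for Treg against Teff cells, 3 to 8 for Treg against Naive cells and 6 to 9 for Teff against Naive cells, where the main counts were 5, 7 and 11. For a difference among the 4 subsets it gave 18 to 23 members, and 7100 to 7547 of all genes. Over all genes, calls numbered 3083 to 3257, 3632 to 3872 and 5564 to 5851 for Anergic against Teff, Treg and Naive cells. They numbered 3234 to 3579 for Treg against Teff, 3785 to 3951 for Treg against Naive and 4042 to 4269 for Teff against Naive cells. The main counts over all genes were 3566, 4150, 6193, 3894, 4396 and 4670 in this order.

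With total counts alone, the calls over all genes were 1218 higher and 2276 lower for Anergic against Teff cells (1864 and 1702 with TMM), 1324 higher and 3027 lower for Anergic against Treg cells (2096 and 2054 with TMM), and 2925 higher and 1126 lower for Treg against Naive cells (2538 and 1858 with TMM). This scaling moved the median log2 fold change of all genes to -0.13 for Anergic against Treg cells, and to -0.099 for Anergic against Teff cells, where the members' median was -0.36. The members' median for Treg against Naive cells was 0.060 with total counts and -0.02 with TMM.

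The shared replicate numbers did not meet the criterion set for pairing the libraries, which asked that every correlation exceed 0.1: same-numbered libraries of 2 subsets deviated together with correlations of -0.048 to 0.18, of which 4 of 18 did so. As a hint from the data of a weak tie, 11 of 12 libraries correlated best with their own number. The main tests treated the libraries as unpaired, so their p-values take no account of such a tie. With the replicate number as a block, 15, 16, 22, 6, 7 and 14 members were called in the 6 comparisons, in the order Anergic against Teff, Treg and Naive cells, Treg against Teff and Naive cells, and Teff against Naive cells, and 25 members differed among the 4 subsets. The counts over all genes with the block are not given here, so no background stands beside these member counts. Depth limits what can be said of Scd1, with 42 counts in all, and of members with few counts, such as Idi1 in Anergic cells.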
